A study of Mus musculus with 3 samples.

Results

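Tendon-like cells were the largest cluster of the D10 culture, a culture of differentiating mouse embryonic stem cells. They carry cluster code 1 in the deposited counts, and no new clustering was made. They numbered 2964 of 7821 culture cells, or 37.9% (36.8 to 39.0), and of 15827 cells in the series. The culture started from mouse embryonic stem cells with the ScxGFP reporter, a transgene in which regulatory sequence of *Scx* drives GFP. Embryoid bodies were exposed to LDN-193189, an inhibitor of BMP receptors, and paraxial mesoderm (PM) was then induced with CHIR, which activates WNT signaling, together with LDN-193189. From D6, TGFβ1, the hedgehog agonist SAG and FGF2 were added until D10. All cells of the culture, tendon-like or not, shared this treatment, so the comparisons are between cells of 1 culture in 1 library. The study used several ScxGFP+ lines, and which of them gave this library is not named in the sources used here. The series also holds 1 library of D6 PM, taken before the tendon step, and 1 library of E14.5 mouse tail.

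Tendons connect muscle to bone through parallel fibrils of type I collagen. The cells that lay down these fibrils arise in the trunk from the somite, where the sclerotome borders the muscle-forming myotome and a stripe of cells, the syndetome, switches on *Scx*, which encodes a basic helix-loop-helix transcription factor. TGFβ signaling maintains and recruits such progenitors, and *Mkx*, *Tnmd*, small proteoglycans and thrombospondins mark their later maturation. *Acta2* encodes smooth-muscle α-actin, a contractile protein best known from vascular smooth muscle and from myofibroblasts.

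The tendon-like cells held 16589854 UMIs (unique molecular identifiers, each marking 1 captured transcript), with a median of 4918.5 UMIs and 2438 genes per cell and a range of 784 to 20683 UMIs. The other 4857 culture cells had a median of 6646 UMIs. Levels are given in CPM, UMIs of a gene per 1000000 UMIs of all genes, summed over the cells of a group. Since each transcript is counted at its 3′ end, levels are not scaled by gene length. Ranges in parentheses are 95% intervals for counting error only, exact Poisson for levels, exact conditional binomial for ratios and Clopper-Pearson for shares. With 1 library, and with the cells clustered on these same genes, no test was made and ratios are a description. Scrublet called 19 of the tendon-like cells as doublets (0.641%) against 97 of the others, and all were kept. Of the tendon-like cells, 3 carried a barcode that also occurs in the tail library and 3 one that occurs in D6 PM.

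The 5 marker genes given for these cells were all higher than in the other culture cells. *Scx* was at 2410.3 CPM against 1055 CPM, a ratio of 2.28 (2.25 to 2.32). *Col1a1*, the α1 chain of type I collagen, was at 2741 CPM against 877, a ratio of 3.12 (3.08 to 3.17). *Postn*, a matricellular protein of collagen-rich tissue, reached 2363 CPM against 681, a ratio of 3.47 (3.41 to 3.52). These 3 genes thus belonged to the abundant transcripts of the cluster. *Thbs4*, a thrombospondin of tendon matrix, was far lower at 87.5 CPM against 21.8, a ratio of 4.02 (3.68 to 4.38), and *Acta2* was at 400.4 CPM against 121, a ratio of 3.32 (3.20 to 3.45). With the other clusters weighted equally rather than by their cells, the ratio of *Acta2* was 1.25, and with each cell's own CPM averaged those of *Scx* and *Acta2* were 1.90 and 1.53.

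The markers divided into broad and sparse ones. To set depths equal, 3000 UMIs were drawn at random from each of the 2595 cells that had as many. Of these, 98.8% (98.3 to 99.2) had a *Col1a1* UMI, 91.2% (90.1 to 92.3) a *Scx* UMI and 90.3% (89.1 to 91.4) a *Postn* UMI. The background shares, in the pluripotent-like cluster (median 10369.5 UMIs per cell before the draw, against 4918.5), were 5.64%, 10.3% and 5.83%. *Thbs4* was found in 12.6% (11.3 to 13.9) of the cells over a background of 0.278%, and *Acta2* in 19.6% (18.1 to 21.2) over 1.57%. *Scx*, *Col1a1* and *Postn* were detected together in 2113 of 2595 cells (81.4%), all 5 markers in 109 (4.20%), and none of the first 3 in 2. Each of the first 3 markers was thus found in most of the cells, and *Thbs4* and *Acta2* in a minority.

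**Figure D1:**
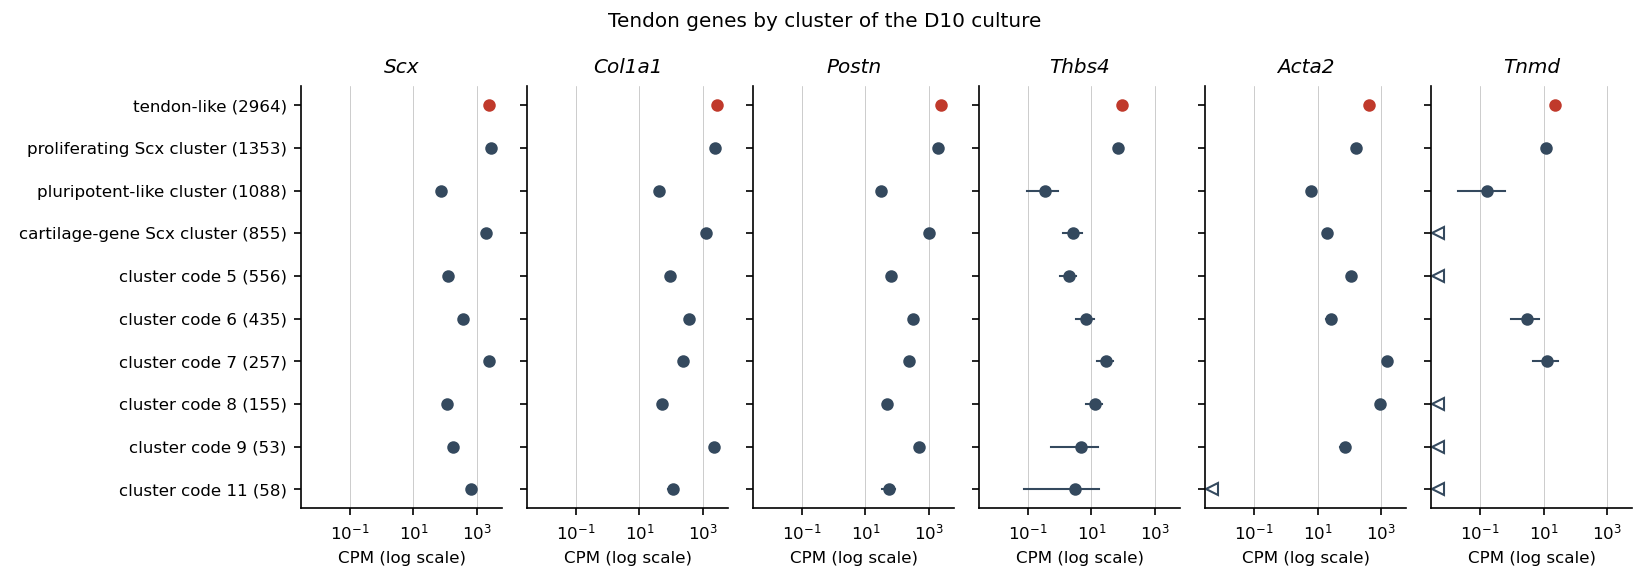
Levels of the 5 markers and *Tnmd* in each cluster of at least 50 cells of the D10 culture, in CPM on a log scale, with the number of cells in parentheses; bars are 95% Poisson intervals and hollow triangles at the left mark 0 UMIs. Tendon-like cells (red) were highest for *Col1a1*, *Postn*, *Thbs4* and *Tnmd*, whereas *Acta2* was higher in cluster codes 7 and 8.

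None of the markers was restricted to the tendon-like cells. *Scx* was at 2699 CPM in a proliferating *Scx* cluster of 1353 cells and at 2388 CPM in cluster code 7, a group of 257 cells with a median of 1424 UMIs. The tendon-like cells were second in order, and their interval lay within that of cluster code 7 (2251 to 2532) and below that of the proliferating cluster. A cartilage-gene *Scx* cluster of 855 cells followed at 1852 CPM, and the pluripotent-like cluster was at 70.7 CPM. *Acta2* was highest in cluster code 7, at 1566 CPM, and in cluster code 8, at 909 CPM, before the tendon-like cells. *Col1a1* came next in the proliferating *Scx* cluster, at 2363 CPM, and in cluster code 9, at 2166 CPM. The ScxGFP row was at 54.4 CPM in tendon-like cells against 23.1 CPM in the others, a ratio of 2.35 (2.14 to 2.58), or 1.97 after thinning all cells to 3000 UMIs, and 12.1% of the cells had a ScxGFP UMI against 0.370% of the pluripotent-like cluster.

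Over the 10 clusters of at least 50 cells, the genes with a pattern most like that of *Scx*, by Pearson's r of log10 CPM among 6725 genes, were *Fabp2* (0.982), *Foxc1* (0.978), *Meox1* (0.977), *Zic1* (0.970) and *Eva1b* (0.967). *Foxc1* and *Meox1* encode transcription factors of the somite. In tendon-like cells *Foxc1* was at 244 CPM, *Meox1* at 129.7 CPM and *Fabp2*, a fatty acid binding protein, at 96.0 CPM. The 10 clusters share 1 library and differ in depth, so these coefficients describe the clusters only.

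Against all other culture cells, 614 of the 8385 genes compared, those found in 10% or more of the cells on either side, were at least 2-fold higher in tendon-like cells (7.32%), and 959 were at least 2-fold lower (11.4%). The median log2 ratio over all genes compared was -0.04. With each cell's own CPM averaged, so that deep cells did not weigh more, 386 genes were higher, and after thinning all cells to 3000 UMIs 274 were higher and 478 lower. Among the higher genes at 50 CPM or more, *Lrrc17*, a secreted leucine-rich repeat protein, led with 93.1 CPM against 21.4, a ratio of 4.35 (3.99 to 4.75). It was followed by the potassium channel *Kcnk2* at 4.31, the methyltransferase *Nnmt* at 4.19, *Cyp1b1* at 4.06, *Thbs4*, the proteoglycan *Aspn* at 3.89 and *Wisp1*, a matricellular WNT target, at 3.78. The most abundant of the 25 leading genes was *Igfbp5*, a binding protein of insulin-like growth factors, at 1394 CPM and a ratio of 3.73 (3.66 to 3.81). *Igfbp7* (825 CPM, ratio 3.58), *Thbs2* (399.9 CPM, 3.71), *Igf1* (293 CPM, 3.64) and the PDGF receptor *Pdgfrb* (92.6 CPM, 3.64) were also among them.

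The genes with the smallest ratios were mainly those of pluripotent cells. *Dppa5a* was at 23.1 CPM against 1496, a ratio of 0.0154 (0.0139 to 0.0171), and *Lin28a*, *Fgf4*, *Trh*, *Tdgf1* and *Sox2* had ratios of 0.00696, 0.00806, 0.0105, 0.0121 and 0.0127. All 11 pluripotency genes compared were at least 2-fold lower, with a median log2 ratio of -6.02. All 9 epithelial genes compared were lower too, with a median of -4.52. Such genes were rare in tendon-like cells, where *Dppa5a* had a UMI in 174 and *Epcam* in 119 of 2964 cells. They entered the comparison mainly through the other cells, so these counts were largely fixed by the detection limit. At the other end of abundance, the 20 highest genes of the tendon-like cells were mainly ribosomal, mitochondrial, translational and cytoskeletal, led by *Tmsb4x*, thymosin β4, at 13834 CPM. *Fn1*, fibronectin, was the first matrix gene in that order, at 2882 CPM.

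**Figure D2:**
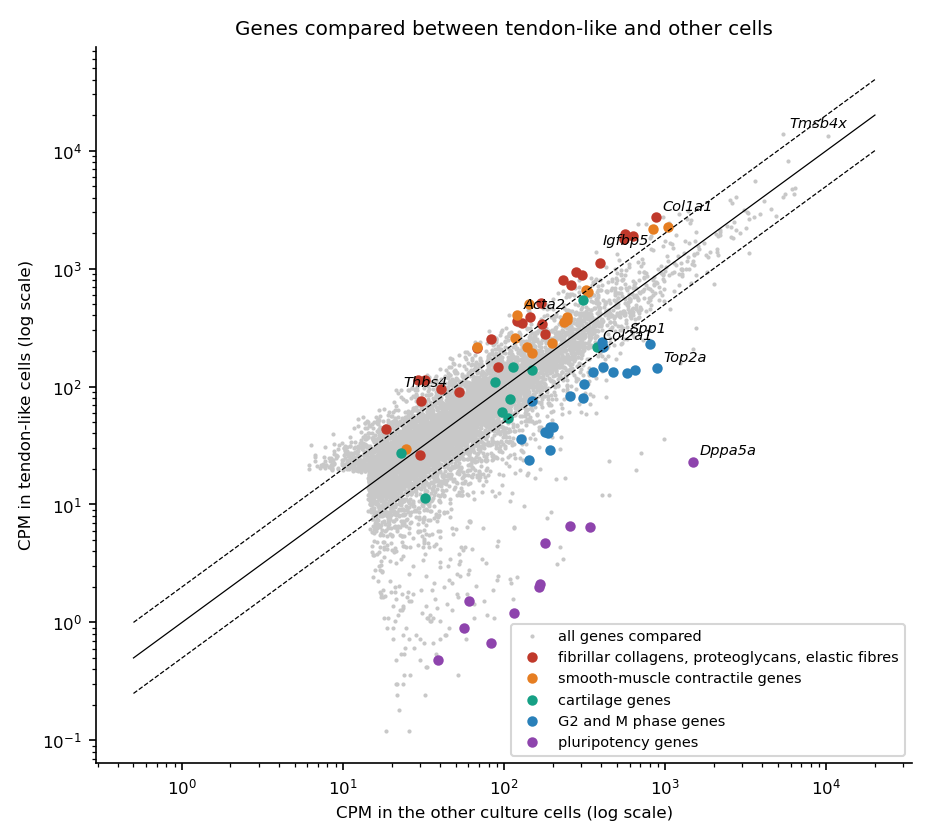
Level of each gene compared, in CPM on log scales, in the other culture cells (horizontal) and in tendon-like cells (vertical); the solid line marks equal levels and the dashed lines 2-fold differences. Matrix genes (red) lay mostly above the upper dashed line, and G2 and M phase (blue) and pluripotency genes (purple) mostly below the lower one.

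Genes of the tendon matrix were higher as groups. All 6 fibrillar collagens compared were at least 2-fold higher, with a median log2 ratio of 1.61. *Col1a2*, the α2 chain of type I collagen, was at 1963 CPM and 3.50 (3.44 to 3.56) times the other cells, *Col3a1* at 1884 CPM and 2.97 (2.92 to 3.02) times, and *Col5a2*, which regulates fibril diameter, at 926 CPM and 3.34 (3.25 to 3.42) times. Of the beaded and fibril-associated collagens, 7 of 8 were higher (median 1.48), with *Col6a3* at 3.01 and *Col12a1* at 2.86, and the exception was *Col14a1* at 1.83. Small leucine-rich proteoglycans, which bind collagen fibrils, were higher in 5 of 6 (median 1.59). *Dcn*, decorin, was at 1765 CPM and a ratio of 3.20, *Bgn*, biglycan, at 1104 CPM and 2.82, and *Ogn*, osteoglycin, at 796 CPM and 3.46. *Fmod*, fibromodulin, stood apart from them at 281 CPM and a ratio of 1.57 (1.52 to 1.63).

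Elastic fibre genes were at least 2-fold higher in 9 of 13 (median 1.42), among them elastin, *Eln*, at 3.52, the fibrillin *Fbn2* at 721 CPM and 2.79, and *Fbln5* at 3.1017. Matricellular and adhesive glycoproteins were higher in 10 of 13 and lower in 1 (median 1.27). *Tnc*, tenascin C, was at 447 CPM and a ratio of 3.20 (3.09 to 3.32), and the gene that was lower was *Spp1*, osteopontin, at 251 CPM and 0.454. Enzymes that modify and crosslink collagen were higher in 10 of 19 (median 1.18), with lysyl oxidase, *Lox*, at 3.04 and the collagen chaperone *Serpinh1* at 1821 CPM and 2.26 (1.93 after thinning), whereas the lysyl hydroxylase *Plod2* was at 1.42. Metalloproteinases and their inhibitors were higher in 9 of 11 (median 1.22), with the membrane-bound collagenase *Mmp14* at 2.53 and the inhibitor *Timp2* at 2.74, although with equal weight for the other clusters these were at 1.54 and 1.38. The tendon-like cells were not highest for 4 of these matrix lists. Summed over the list, beaded and fibril-associated collagens stood at 1702 CPM against 1863 CPM in cluster code 9, metalloproteinases and inhibitors at 1702 CPM against 4599 CPM in cluster code 9 and 2386 CPM in cluster code 11, matricellular genes at 8087 CPM against 20793 CPM in cluster code 9, and collagen enzymes at 7576 CPM against 8757 CPM in the cartilage-gene *Scx* cluster.

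Other tendon transcription factors and maturation genes were lower in level. *Mkx*, the homeobox gene Mohawk, was at 48.9 CPM, a ratio of 3.59 (3.21 to 4.02), and was found in 13.5% (12.2 to 14.9) of the cells at 3000 UMIs over a background of 0.833%. *Egr1*, a mechanically responsive factor that promotes tendon collagen, was at 71.2 CPM and 1.92. Of the 8 tendon transcription factors compared, *Scx* and *Mkx* were at least 2-fold higher and 2 were lower, *Tgif1* at 0.396 and *Klf2* at 0.269. *Tnmd*, tenomodulin, the usual marker of maturing tenocytes, was at 23.6 CPM and a ratio of 6.07 (4.9974 to 7.40), but was found in 3.85% (3.15 to 4.67) of the cells, which left it under the detection limit of the comparison. The pluripotent-like cluster had no *Tnmd* UMI in 1081 thinned cells, which allows a share of cells with a UMI, not of expressing cells, of up to 0.341%. The secreted protease *Htra3* was at 3.45 and the prostacyclin synthase *Ptgis* at 1.69. Summed, the maturation genes stood at 822 CPM against 1424 CPM in the cartilage-gene *Scx* cluster and 858 CPM in the proliferating one.

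The pathways targeted by the added factors were examined next. Hedgehog pathway genes were higher in 5 of 9 compared (median 1.04). The target *Gli1* was at 22.5 CPM and 2.07 (1.80 to 2.40), the feedback inhibitor *Hhip* at 99.3 CPM and 2.05 (1.92 to 2.20), and the coreceptors *Boc* and *Gas1* at 3.05 and 2.27. *Ptch1*, the receptor and a classic target, was the most abundant at 234 CPM but at a ratio of 1.42 (1.37 to 1.48). With all cells thinned to 3000 UMIs *Gli1*, *Hhip* and *Gas1* were slightly under 2-fold, at 1.96, 1.77 and 1.96. Of the FGF genes, 5 of 14 were higher and 2 lower (median 0.61). *Fgf9* was at 3.99, *Fgf18* at 2.91 and the feedback genes *Spry1* and *Dusp6* at 2.39 and 2.10 (the latter 1.97 after thinning), while *Etv5* was at 0.321. Against the 7.32% higher and 11.4% lower over all genes compared, the FGF share lower is near the background.

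TGFβ ligands, receptors and mediators were higher in 7 of 14 and lower in 1 (median 0.96). The ligand *Tgfb3* was at 51.7 CPM and 3.11 (2.80 to 3.45), *Tgfb2* at 2.08, the activin subunit *Inhba* at 3.0023 and the receptor *Tgfbr2* at 2.36. Response genes of TGFβ were higher in 7 of 15 and lower in 1 (median 0.57). *Pmepa1*, a feedback inhibitor, was the most abundant at 839 CPM and 2.43 (2.37 to 2.49), *Tgfb1i1* was at 3.60 and *Cilp* at 3.60. With equal weight for the other clusters *Tgfbr2* was at 1.07 and *Tgfb2* at 1.75, and after thinning they were at 1.85 and 1.79. With each cell's CPM averaged *Tgfb2* was also under 2-fold, at 1.80. The feedback genes *Smad7* and *Skil* were at 1.10 and 1.18, inside the 2-fold limits. BMP genes were higher in 4 of 12 and lower in none, with *Bmp4* at 3.0039, and WNT genes were higher in 4 of 14 and lower in 1, with the potentiator *Rspo3* at 195 CPM and 3.43. Retinoic acid genes were higher in 3 of 9 and lower in 1 (here and for WNT genes the share lower is again near the 11.4% of all genes), and the synthesizing enzyme *Aldh1a3* was at 3.52. The summed level of this list, 1133 CPM, was exceeded in cluster codes 8, 7 and 9, at 2870, 1706 and 1544 CPM. TGFβ response genes summed to 2091 CPM against 2617 CPM in cluster code 9, and the sums of FGF, BMP and WNT genes were exceeded in the cartilage-gene *Scx* cluster, at 1226, 1705 and 1403 CPM against 1064, 1277 and 1292 CPM.

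Transcription factors of the somite and sclerotome were higher in 8 of 12 compared and lower in none (median 1.12). *Twist1* was at 599 CPM and 2.20, *Prrx1* at 3.13 and *Meox1* at 2.88, whereas the sclerotome factor *Pax9* was at 65.0 CPM and 1.24 and *Pax1*, under the detection limit, at 17.2 CPM and 0.727. *Hox* genes were higher in 4 of the 7 compared, namely *Hoxa5*, *Hoxb2*, *Hoxb3* and *Hoxb4*, at 2.26, 2.07, 2.54 and 2.21. The other *Scx* clusters held as much or more of these genes. Against the proliferating and the cartilage-gene cluster the list medians were -0.04 and -0.28 for the somite factors, -0.06 and -0.42 for *Hox* genes and -0.11 and -0.12 for hedgehog genes. With all cells thinned *Twist1*, *Hoxa5* and *Hoxb2* were at 1.82, 1.76 and 1.81, and with each cell's CPM averaged *Twist1*, *Hoxa5*, *Hoxb2* and *Hoxb4* were at 1.85, 1.80, 1.77 and 1.94, which left *Hoxb3* alone of the 4 *Hox* genes past 2-fold under both. Imprinted growth genes were higher in 4 of 12 (median 0.87), and *Peg3* and *Mest* were among the abundant transcripts, at 3103 and 2186 CPM, although the list summed to 10304 CPM against 13653 CPM in the cartilage-gene cluster.

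Adhesion and growth factor genes were examined in the same way. Genes for IGF ligands, receptors and binding proteins were higher in 5 of 9 (median 1.22), and besides *Igf1*, *Igfbp5* and *Igfbp7* these were *Igfbp3* at 252 CPM and 3.09, or 1.31 with equal weight for the other clusters, and *Igfbp4* at 583 CPM and 2.32, or 1.81 with equal weight. Integrins and cadherins were higher in 7 of 13 and lower in 1 (median 1.08). The collagen receptor subunit *Itga1* was at 2.97, the mesenchymal cadherin *Cdh11* at 623 CPM and 2.90, and *Itga6*, a subunit of laminin receptors, at 0.305. Summed, IGF genes stood at 4688 CPM against 5267 CPM in cluster code 8, and integrins and cadherins at 2474 CPM against 3002 CPM in cluster code 9. Hypoxia and glycolysis genes were higher in none of 18 and lower in 2 (median -0.43), and immediate early and heat shock genes passed 2-fold in none of 10. Among p53 targets 1 of 12 was higher, *Plk2* at 2.69, or 1.86 with equal weight for the other clusters, and 2 were lower. The shares of hypoxia genes lower and p53 targets higher are close to the 11.4% and 7.32% over all genes compared.

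Markers of other cell types were summed over each list. Skeletal muscle markers stood at 12.4 CPM in tendon-like cells, with 5 of 12 at 0, *Myod1* and *Myog* among them, and cardiac markers at 3.92 CPM with 2 of 7 at 0. Neural markers summed to 8.32 CPM, endothelial ones to 51.6 CPM against 5543 CPM in cluster code 11, and blood markers to 43.7 CPM against 27797 CPM in cluster code 6. Of the blood markers, 2 globin genes had 157 of 198 and 232 of 341 UMIs in their highest cell. The 7 pericyte and vascular smooth muscle markers summed to 96.4 CPM, in the middle of the 27.5 to 141 CPM of the 10 clusters, with *Rgs5* at 12.1 CPM and the smooth muscle myosin *Myh11* at 4.40 CPM. The 9 endoderm markers summed to 44.1 CPM, and of this the secreted protein *Afp* made up 33.4 CPM, with 303 of its 554 UMIs in 1 cell and all of them in 8 cells. At 3000 UMIs, 16 of 2595 cells had at least 3 UMIs of *Pou5f1*, *Dppa5a* and *Epcam*, markers of pluripotent and epithelial cells, and 8 of these 16 were called doublets.

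**Figure D3:**
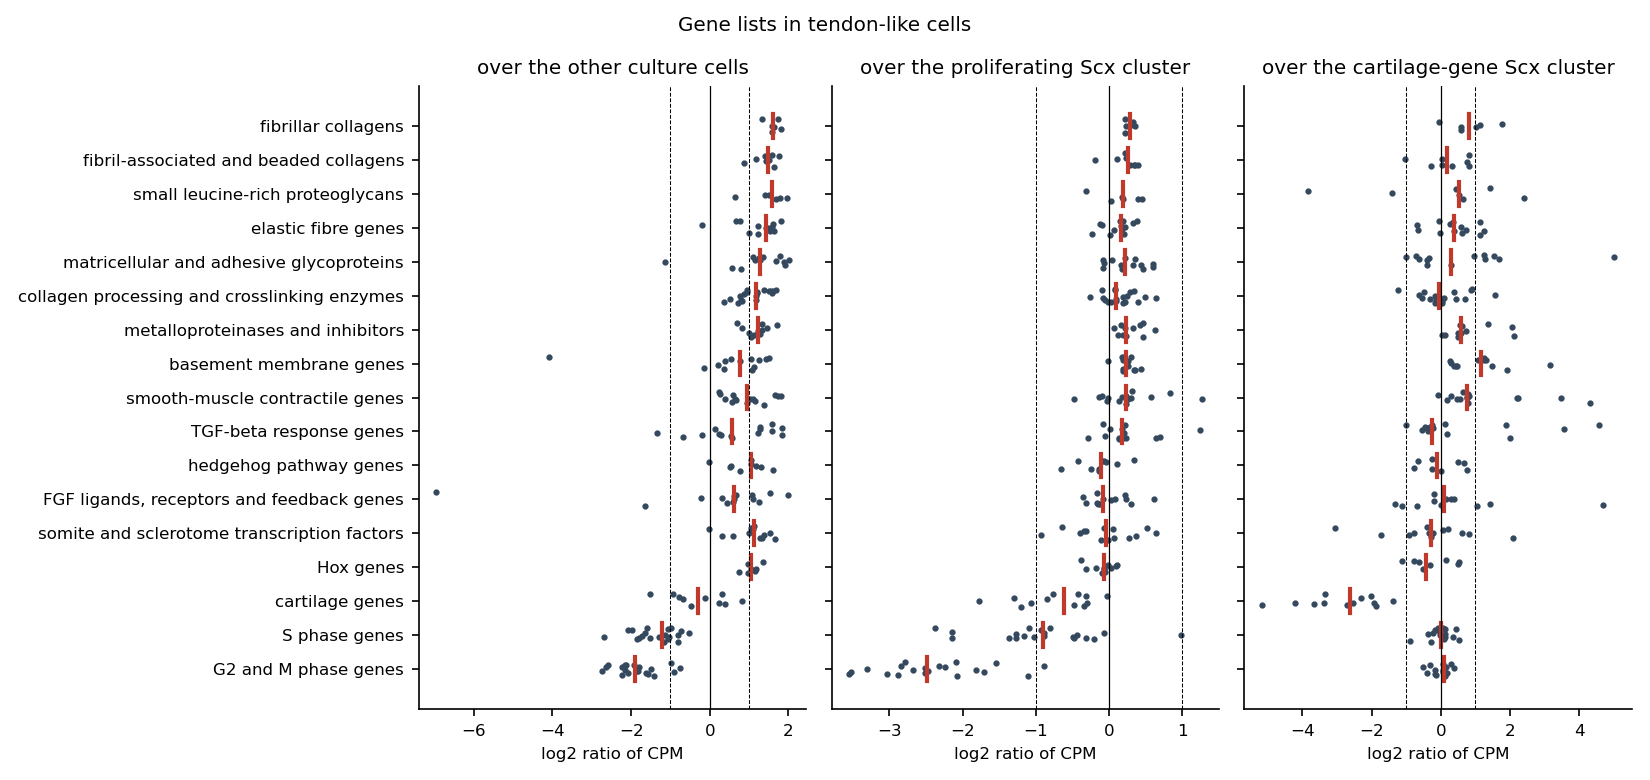
Log2 ratio of CPM in tendon-like cells over 3 groups of culture cells, for the compared genes of 17 lists; each point is a gene, red bars are list medians, and dashed lines mark 2-fold. Medians of the matrix lists lay above 0 in the first panel and nearer 0 against the proliferating *Scx* cluster, where the cell cycle lists were lowest, and cartilage genes were lowest against the cartilage-gene *Scx* cluster.

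Against the proliferating *Scx* cluster the tendon-like cells were lower in genes of the cell cycle and in some cartilage genes, and close in genes of the tendon matrix. Of 8077 genes compared, 15 were at least 2-fold higher in tendon-like cells (0.186%) and 340 were at least 2-fold lower (4.21%). Of the G2 and M phase genes 19 of 20 were lower, with a median log2 ratio of -2.49, and of the S phase genes 9 of 20 (median -0.91). The cluster was chosen by its proliferation markers, so lower cell cycle genes restate that choice. *Nusap1*, *Aurkb*, *Prc1* and *Top2a*, all of mitosis or chromosome segregation, had ratios of 0.0854, 0.0872, 0.0916 and 0.101, and histone genes such as *Hist1h1b* were lowest, at 0.0720. Reads that fit several histone copies equally were ignored in the counting, so levels of single histone genes are uncertain. None of the fibrillar collagens, proteoglycans or elastic fibre genes passed 2-fold, and their medians were 0.28, 0.19 and 0.16 against 0.04 over all genes. The same held for metalloproteinases and inhibitors (median 0.23) and TGFβ ligands, receptors and mediators (0.15). It also held for IGF genes (0.21) and for integrins and cadherins (0.10). Of 15 TGFβ response genes 1 was at least 2-fold higher. The proliferating cluster thus largely shared the levels of these lists. Cartilage genes were at least 2-fold lower in 4 of the 12 compared and higher in none, with a median of -0.62. *Scx* was slightly lower in tendon-like cells, at 0.893 (0.880 to 0.907) times the proliferating cluster, and *Col1a1* slightly higher, at 1.16 (1.14 to 1.18).

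Among genes at 50 CPM or more, the 4 largest ratios in that comparison were those of *Cdkn2a*, *Mxd4*, *Acta2* and *Cdkn2b*. *Cdkn2a*, which encodes the cyclin-dependent kinase inhibitor p16 and the p53 activator p19, was at 104 CPM against 36.7, a ratio of 2.83 (2.54 to 3.17). *Mxd4*, an antagonist of MYC, was at 2.68 (2.38 to 3.03), *Acta2* at 2.40 (2.28 to 2.53) and *Cdkn2b*, the inhibitor p15, at 2.36 (2.14 to 2.61). *S100a6* and *Sat1* followed at 2.30 and 2.02. Of the 7 kinase inhibitors compared 2 were higher and 2 lower (median -0.41), and the lowest log2 ratio of the list was -2.68. *Cdkn1a* (p21) was at 524 CPM and 0.753, *Cdkn1c* (p57) at 1449 CPM and 0.955, and *Cdkn2d* at 0.416. *Cdkn2a* and *Cdkn2b* were not highest in tendon-like cells within the culture, since cluster code 9 held 1553 and 435 CPM and cluster code 7 held 371 and 307 CPM. *Cdkn2b* was 3.02 times the other cells pooled, but 0.901 times their mean when each cluster had equal weight.

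Transcripts of cycling cells had UMIs in a part of the tendon-like cells. *Top2a* was at 142 CPM and *Mki67* at 133 CPM, and at 3000 UMIs 515 of 2595 cells (19.8%, 18.3 to 21.4) had at least 2 UMIs of *Top2a*, *Mki67* and *Cenpf* together. No background share was taken for this count, since other clusters of the library are rich in these transcripts, and it is not a share of cycling cells. As a level, *Top2a* was lowest in cluster code 9, at 18.2 CPM, and the 20 G2 and M phase genes summed to 2112 CPM in tendon-like cells against 330.3 CPM there. Over cells *Top2a* correlated with *Cenpf* (Pearson's r of log counts 0.48), *Ube2c* (0.42) and *Mki67* (0.39). In the cartilage-gene cluster *Top2a* was at a like level, 125 CPM, and none of the 18 G2 and M phase genes compared differed from it by 2-fold.

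The cartilage-gene *Scx* cluster differed from the tendon-like cells in genes of cartilage matrix. Of 7077 genes compared, 238 were at least 2-fold higher in tendon-like cells (3.36%) and 109 at least 2-fold lower (1.54%). All 12 cartilage genes compared were lower, with a median log2 ratio of -2.63. The cluster was chosen by its cartilage markers, so this direction restates that choice and only the sizes describe the cells. *Acan*, aggrecan, was at 11.3 CPM against 208, a ratio of 0.0542, *Col2a1* at 218 CPM against 2271, a ratio of 0.0961, and *Cnmd*, chondromodulin, a homolog of *Tnmd*, at 0.0189. *Sox9*, the master factor of cartilage, was at 108 CPM against 409.6, a ratio of 0.264 (0.246 to 0.284). *Pax1* and *Pax9* of the sclerotome were at 0.120 and 0.303. *Fmod* and *Col14a1* went the same way, at 0.377 and 0.484, although both stand on the list of tendon maturation genes.

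Higher in the tendon-like cells were *Thbs4*, at 32.3 (17.0 to 70.9) times the cartilage-gene cluster, *Cdkn2b* at 23.8 (14.6 to 41.7), *Acta2* at 19.9 (15.6 to 25.7), *Tagln* at 11.1 (9.46 to 13.2) and *Cdkn2a* at 10.5 (7.43 to 15.3). The cartilage-gene cluster was shallower, with a median of 3696 UMIs per cell against 4918.5. Among the tendon-like cells, *Acta2* stood at 38.9 CPM in the shallowest depth group (median 3002 UMIs) and 806 CPM in the deepest. *Thbs4*, *Tagln* and *Cdkn2a* also rose with depth there. How far depth enters these ratios was not tested. The membrane protein *Tm4sf1*, *Nnmt*, the laminin chain *Lama1*, the plasminogen activator *Plat* and *Aldh1a3* had ratios between 7.24 and 9.95. Basement membrane genes were higher in 7 of 12 compared (median 1.17), with *Col4a1* at 819.9 CPM and 2.80. Fibrillar collagens were higher in 3 of 6 (median 0.81), with *Col1a2* at 3.44, *Col1a1* at 2.20 and *Col5a2* at 2.02. *Tnmd* had 391 UMIs in tendon-like cells and 0 in the cartilage-gene cluster, so that it was at least 26.1-fold higher against a floor of 3 UMIs over that cluster.

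Among themselves, the tendon-like cells varied most in a small set of genes. Over the 2595 cells at 3000 UMIs, the variance over mean, which is near 1 for counting noise alone, had a median of 1.06 over the 3064 genes with a mean of at least 0.2 UMIs, and 109 genes were over 2. The genes at the top were the long RNAs *Gm42418* (61.4), which overlaps ribosomal RNA sequence, and *Malat1* (21.1). Among those that followed were *Spp1* (13.0), *Acta2* (12.2), *Scx* (11.1), the fatty acid binding protein *Fabp5* (9.96), *Meg3* (9.53), *H19* (8.98), *Igfbp5* (7.80), *Tagln* (6.91), *Penk* (6.89) and *Dcn* (6.57). These values grow with a gene's mean and so rank genes within this depth only.

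*Scx* itself was graded. The median cell had 4 *Scx* UMIs of 3000, the quartiles were 2 and 9, and the highest cell had 131, so that 23.8% of cells had at least 10 UMIs while 8.75% had none. The 5% of cells with most *Scx* held 25.01% of its UMIs. *Col1a1* was more even, with a median of 7 UMIs, quartiles of 5 and 11 and 13.1% of its UMIs in the top 5% of cells, and *Postn* had a median of 6, with quartiles of 3 and 11. *Spp1* and *Acta2* were at the other extreme, each without a UMI in 80.4% of cells and with 69.3% and 70.3% of their UMIs in the top 5%. *Meg3* was at 0 in 96.0% of cells and reached 27 UMIs in the highest.

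**Figure D4:**
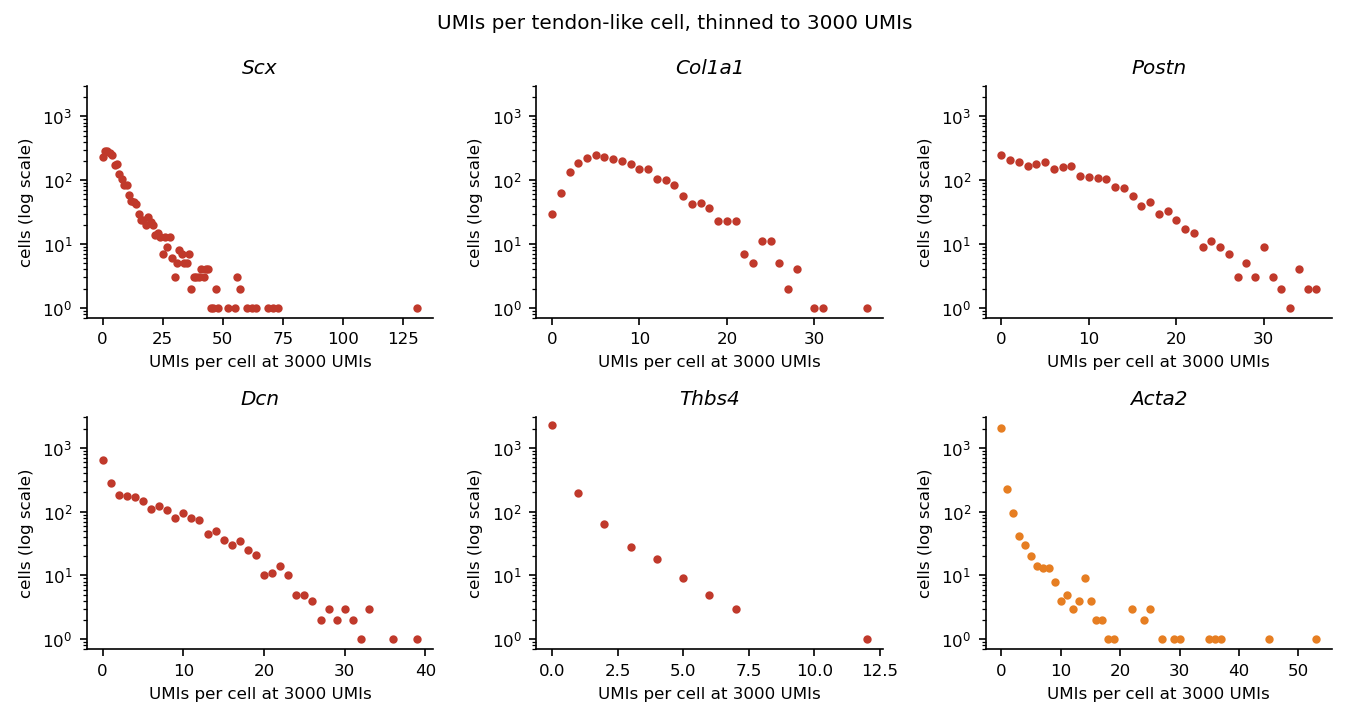
Number of tendon-like cells (vertical, log scale) with each number of UMIs (horizontal) after thinning to 3000 UMIs, for 6 genes over 2595 cells. *Col1a1* peaked above 0, *Scx* was graded with a tail up to 131 UMIs, and *Thbs4* and *Acta2* were at 0 in most cells.

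*Scx* had weak negative coefficients over cells with some matrix genes and weak positive ones with others. Over the 2595 cells, *Scx* and *Postn* had a correlation of -0.21, *Scx* and *Col1a1* -0.12 and *Scx* and *Dcn* -0.15, and the most negative was *Fabp5* at -0.30. The most positive were *Rflnb*, a regulator of the actin crosslinker filamin, at 0.27 and *Tagln2* at 0.27. All 6 kept their signs within each of 4 groups of these cells by depth, of 372, 741, 741 and 741 cells, with *Postn* between -0.26 and -0.14, *Col1a1* between -0.16 and -0.08 and *Fabp5* between -0.33 and -0.24. The matrix genes positive with *Scx* included *Tnc* and *Spp1*, both at 0.18, and *Thbs4* at 0.08. *Postn* went with several matrix genes, at 0.40 with *Col1a2*, 0.38 with *Col1a1* and 0.37 with *Thbs2*, and at 0.35 with *Rspo3*. Other matrix genes did not follow, since *Spp1* was the most negative partner of *Postn*, at -0.30, and *Thbs4* and *Col1a1* were at -0.003. All cells come from 1 library and counts at this depth are sparse, so weak coefficients carry no finding.

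Cartilage transcripts were found in a part of the cells. *Col2a1* had a UMI in 33.9% (32.1 to 35.8) of the cells at 3000 UMIs, against 89.7% of the cartilage-gene cluster and a background of 3.70%, and 218 of 2595 cells (8.40%, 7.36 to 9.54) had at least 3 UMIs of *Acan* and *Col2a1*. Over cells, *Col2a1* correlated with *Col9a3*, a collagen of the same heterotypic fibrils (0.38), and with the opioid precursor *Penk* (0.32), *Itm2a* (0.27), *Fmod* (0.27) and *Col14a1* (0.24).

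Contractile genes were higher than in the other culture cells in 7 of 15 compared (median 0.94), in 1 of 15 against the proliferating cluster and in 4 of 15 against the cartilage-gene cluster. The shares higher over all genes differ between these comparisons, at 7.32%, 0.186% and 3.36%, so the 3 counts are not to be set against each other. With equal weight for the other clusters *Acta2*, *Tagln*, *Cnn2*, *Myl6* and *Tpm1* of the first count were under 2-fold, at 1.25, 1.78, 1.70, 1.42 and 1.83, and the summed level of the list was higher in cluster code 7 (11652 CPM) than in the tendon-like cells (8909 CPM). *Acta2*, the gene of this list with the highest ratio over the cartilage-gene cluster, was detected in a minority of cells. At 3000 UMIs, 2086 of 2595 cells had no *Acta2* UMI, 390 had 1 to 4, and 119 (4.59%) had 5 or more, up to 53. The limit of 5 cuts a continuous range, with 71 cells at 3 or 4 UMIs and 34 at 5 or 6. Over cells *Acta2* correlated with *Tagln* (transgelin, 0.69), *Myl9* (a myosin light chain, 0.44), *Cdkn2b* (0.38), *Cdkn2a* (0.36), *Anxa3* (0.35) and *Tpm2* (a tropomyosin, 0.35). The most negative were the glycolytic enzymes *Pgk1* and *Pkm*, both at -0.31.

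The promoters of the contractile genes are shown because these genes went together. The CArG box is the element bound by serum response factor, which drives many smooth-muscle genes. The RefSeq windows (GRCm38.p6) run from 250 bases before to 50 bases after each start site, were found for 18 of the 22 contractile genes, and are not the reference of the counts, which is not named in the sources used here. The box was present in 3 of 20 windows of these genes and in 1.63% of all 32851 windows, and since it is its own reverse complement 1 search covers both strands. The windows of *Myl9* (chr2:156775214-156775513, plus strand) and *Cnn2* (chr10:79988350-79988649, plus strand) held it 161 and 56 bases before the start site, shown in capitals, and the third was that of *Myl6*. The window of *Acta2* (chr19:34255324-34255623, minus strand) held no exact box, and the capitals there mark the 2 places that differ from it by 1 inner letter. This form was present in 2 of 20 windows of the contractile genes and in 8.50% of all windows, a like share. The window of *Myl9* held it too, 99 bases before the start site, left in lower case. A match of letters is a description and not a bound site.
Myl9: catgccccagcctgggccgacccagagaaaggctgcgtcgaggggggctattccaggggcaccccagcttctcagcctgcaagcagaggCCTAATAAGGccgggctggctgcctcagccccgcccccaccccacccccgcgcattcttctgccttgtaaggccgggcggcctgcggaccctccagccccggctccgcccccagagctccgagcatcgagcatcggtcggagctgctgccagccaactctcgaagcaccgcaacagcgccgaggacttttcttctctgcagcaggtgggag
Cnn2: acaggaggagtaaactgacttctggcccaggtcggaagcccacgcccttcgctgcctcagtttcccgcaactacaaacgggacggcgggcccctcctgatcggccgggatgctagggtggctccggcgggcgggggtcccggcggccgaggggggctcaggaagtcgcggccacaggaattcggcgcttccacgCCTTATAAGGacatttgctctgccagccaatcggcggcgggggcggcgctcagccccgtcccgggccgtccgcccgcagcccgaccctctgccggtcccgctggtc
Acta2: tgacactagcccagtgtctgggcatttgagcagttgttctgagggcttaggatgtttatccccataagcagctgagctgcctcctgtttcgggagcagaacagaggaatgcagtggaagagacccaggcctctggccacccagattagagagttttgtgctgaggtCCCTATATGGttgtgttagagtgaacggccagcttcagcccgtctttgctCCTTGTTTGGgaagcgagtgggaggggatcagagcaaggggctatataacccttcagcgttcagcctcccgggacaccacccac

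The 119 cells with at least 5 *Acta2* UMIs were compared with the 2086 without one, on the thinned counts. Of 5497 genes compared, 199 were at least 2-fold higher (3.62%) and 285 at least 2-fold lower (5.18%). Among the contractile genes 12 of 17 were higher, with a median log2 ratio of 1.21 against -0.01 over all genes. Both the 12 and the median include *Acta2* itself, which was fixed as higher by the choice of cells. Members found in under 10% of cells without *Acta2*, such as *Actg2* at 1.1%, were compared only through the *Acta2* cells. The count thus follows in part from the detection limit. *Tagln* was at 3028 CPM against 126, a ratio of 24.0 (21.8 to 26.3), *Myl9* at 6.90 (5.999 to 7.92), *Tpm2* at 4.60 (3.98 to 5.30) and *Tpm1* at 2.12 (2.01 to 2.24). *Actg2*, a close paralog of *Acta2*, was at 75.7 (48.7 to 122), and reads shared by the pair were not counted for either. Of 6 kinase inhibitors compared 2 were higher and 1, *Cdkn1c*, was lower, at 0.330 (0.286 to 0.379). *Cdkn2a* was at 398 CPM against 42.4, a ratio of 9.39 (7.61 to 11.6), and *Cdkn2b* at 8.15 (6.64 to 9.95). Both had a UMI in under 10% of the cells without *Acta2*, at 8.7% and 9.8%. They were thus compared only through the *Acta2* cells, which in part fixed the count of 2. The annexin *Anxa3* was at 5.32.

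Among the tendon genes, *Tnmd* and *Thbs4* were higher in the *Acta2* cells, and *Postn* and *Fmod* were lower. By list, 3 of 6 tendon maturation genes compared were at least 2-fold higher and 2 lower. Of 6 tendon transcription factors 1 was higher and 1 lower, and of 6 small leucine-rich proteoglycans 2 were lower and 0 higher. Over all genes compared the shares were 3.62% higher and 5.18% lower. *Tnmd* was at 115 CPM against 7.99, a ratio of 14.4 (9.27 to 22.2), and *Thbs4* at 4.77 (3.73 to 6.05). *Thbs4* was found in 9.7% of cells without *Acta2*, and *Tnmd* in 3.85% of all the thinned cells. Neither reached the 10% detection limit in the cells without *Acta2*, so that their being higher follows in part from the limit. *Col1a1* was at 0.909 (0.849 to 0.972), *Dcn* at 0.885 (0.812 to 0.962), *Mkx* at 0.952 (0.548 to 1.55), and *Scx* at 0.744 (0.687 to 0.804), all inside the 2-fold limits, whereas *Postn* was at 0.491 (0.446 to 0.539) and *Fmod* at 0.415 (0.303 to 0.556). Lower still were *Penk* at 0.115 (0.0825 to 0.155), *Pdgfra* at 0.212 (0.0774 to 0.465) and the cartilage genes, 7 of 8 of which were at least 2-fold lower (median -1.76), with *Col2a1* at 0.354 (0.243 to 0.4998). Hypoxia and glycolysis genes were lower in 10 of 16 and higher in none (median -1.15), with *Pgk1* at 0.419 (0.374 to 0.468) and *Vegfa* at 0.174 (0.0793 to 0.332). None of the 16 G2 and M phase genes compared passed 2-fold (median 0.12), and of 13 S phase genes 2 were higher.

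Depth ran with *Acta2*. Before thinning the median was 4938 UMIs in cells without *Acta2*, 6682 in those with 1 to 4 UMIs and 9032 in those with 5 or more, of which 96 of 119 were in the deepest group of the cluster. The median mitochondrial share was 1.80%, 1.93% and 2.20% in the same order, and 15, 3 and 1 of the cells were called doublets. By 4 groups of 741 cells with medians of 3002, 4334, 5514 and 8575 UMIs, *Acta2* stood at 38.9, 62.7, 139 and 806 CPM. From the shallowest to the deepest group *Tagln* ran from 74.5 to 935 CPM, *Cdkn2a* from 17.5 to 190.2, *Tnmd* from 7.30 to 40.8 and *Thbs4* from 39.4 to 119. *Postn* ran the other way, from 3322 to 2011 CPM, as did *Penk*, from 1101 to 553, while *Scx* was between 2077 and 2653 and *Col1a1* between 2611 and 3105. UMIs per cell reflect both capture and the RNA content of a cell, which cannot be told apart here.

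Within the deepest of these groups alone, which held 96 cells with at least 5 *Acta2* UMIs and 441 without, 161 of 5474 genes were at least 2-fold higher (2.94%) and 303 lower (5.54%). The ratio of *Tagln* there was 12.9 (11.4 to 14.7), that of *Cdkn2a* 4.79 (3.69 to 6.22) and that of *Cdkn2b* 4.01 (3.12 to 5.14), each smaller than over all depths but still past 2-fold. *Thbs4* was at 2.96 (2.11 to 4.14) there, against 4.77 over all depths. *Pdgfra* was at 0.353 (0.111 to 0.868), against 0.212, on 6 UMIs in the cells with *Acta2* over all depths. *Anxa3* was at 3.53, and *Postn* at 0.545 lay inside the 2-fold limits there. *Tnmd* was at 14.6 (7.44 to 30.6), *Penk* at 0.106 (0.0691 to 0.156), *Pgk1* at 0.441 (0.384 to 0.504) and *Scx* at 0.692 (0.631 to 0.758), near their values over all depths. The correlation of *Acta2* with *Tagln* was 0.30 in the shallowest group and 0.72 in the deepest. With *Cdkn2a* it lay between 0.14 and 0.34 over the groups, and with *Cdkn2b* between 0.22 and 0.35. With *Myl9* it lay between 0.19 and 0.50, and with *Pgk1* between -0.32 and -0.11.

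**Figure D5:**
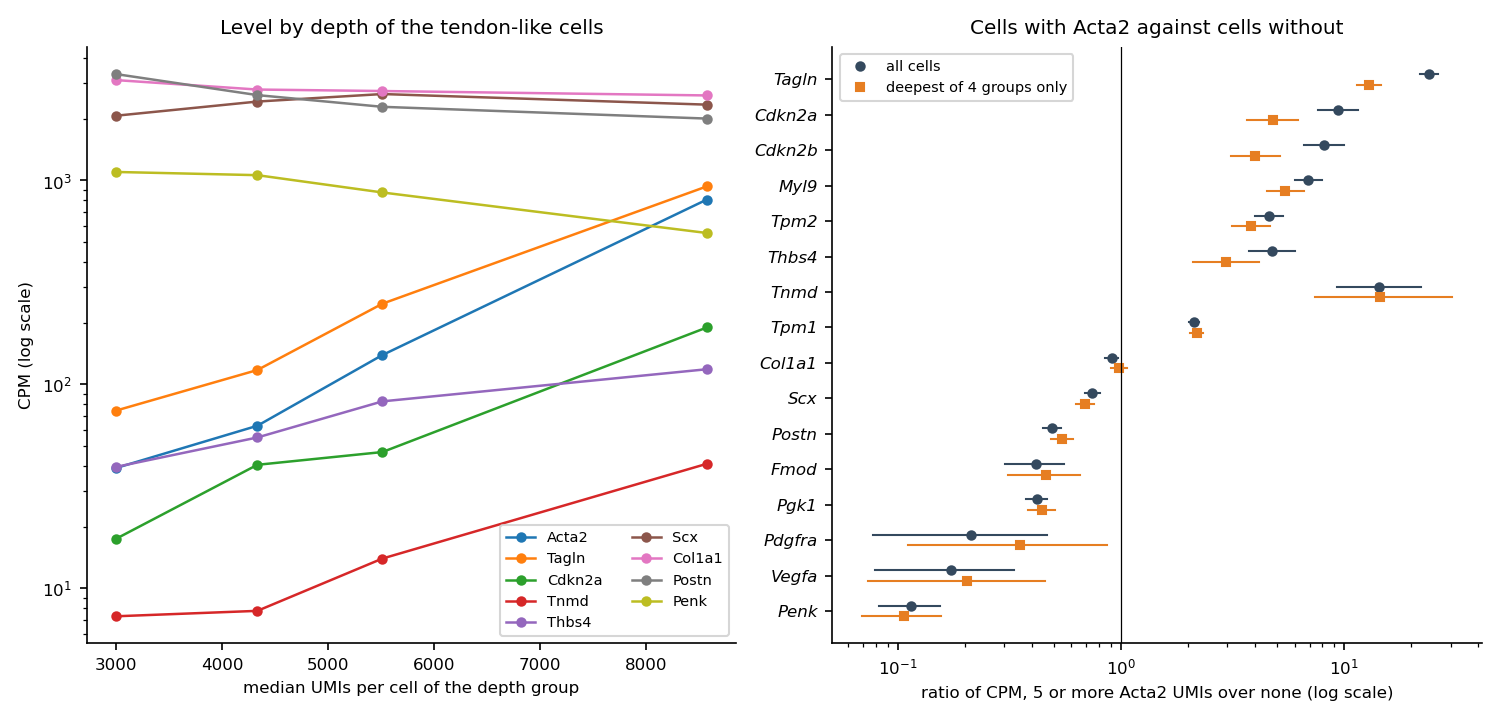
Left, levels of 9 genes in CPM (log scale) in 4 equal groups of the tendon-like cells by depth, against the median UMIs per cell of the group; *Acta2* ran from 38.9 to 806 CPM. Right, ratio of CPM in cells with 5 or more *Acta2* UMIs over cells with none, with 95% intervals, for all cells and for the deepest group; *Tagln*, *Cdkn2a*, *Cdkn2b* and *Tnmd* lay above 1 and *Postn*, *Pgk1* and *Penk* below 1 in both.

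For reference, levels of some of these genes in the other libraries are given, and those of *Scx*, *Col1a1* and *Postn* are not among them. In the 685 tail cells with the same cluster code, at a median of 13463 UMIs, *Thbs4* was at 48.4 CPM, *Acta2* at 277, *Tagln* at 167 and *Mkx* at 22.3, each lower than in the tendon-like cells of the culture, and *Tnmd* was higher, at 93.0 CPM. *Fmod* was at 41.7 CPM there against 281 in the culture, and *Dcn* at 1499 against 1765. In D6 PM, *Thbs4* was at 0.154 CPM, *Acta2* at 15.041, *Mkx* at 3.47 and *Fmod* at 0.0771. Each is 1 library, so that a difference between conditions and one between libraries cannot be told apart.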

How the data were processed

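Single-cell RNA-seq was made with 10x Genomics 3′ chemistry, 1 library each of D6 PM, the culture at D10 and the E14.5 tail. The authors counted UMIs with Cell Ranger, ignoring reads that mapped to several places, removed low-quality cells, aligned the culture with the tail in Seurat (version 3.0) and clustered both. The deposited files hold raw UMI counts per gene and cell with the authors' cluster code of each cell, and the genome reference is not given in the sources used here.

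From these counts, UMIs were summed over cells and expressed as CPM with Python 3.11.15, NumPy 2.4.6, SciPy 1.17.1 and pandas 2.3.3. A gene was compared if 10% or more of the cells on either side held a UMI of it, and counted as higher or lower from 2-fold. A group with 0 UMIs was given a floor of 3 UMIs for ratios. Shares, variances and correlations over cells used cells thinned to 3000 UMIs (seed 1), correlations on log counts. The proliferating and cartilage-gene *Scx* clusters were those with *Scx* above the mean of the library and the highest levels of proliferation and cartilage markers. Doublets were called with Scrublet in Scanpy 1.11.5 (expected rate 6%) and kept. With 1 library per condition no test was made. The comparison was tested on simulated data.

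Genes were named if they were cell type markers, members of fixed lists, among the 25 largest or 15 smallest ratios over the other culture cells, among the 10 at either end against each *Scx* cluster (for these ratios with at least 100 UMIs and 50 CPM), among the 20 highest by variance over mean or by CPM, or among the 10 most like *Scx* over clusters. The members and lists were chosen with earlier results of these data known. The *Acta2* classes, and *Anxa3*, *Rflnb* and *Itm2a* as partners of other genes, were chosen after their values were seen. Called doublets, low-depth cells, the detection limit, the fold, the scaling and the weight of the other clusters were varied.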

Additional observations from a re-analysis of the deposited data

How the results depend on the processing

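Of the 148 named genes with a ratio over the other culture cells, 116 differed by at least 2-fold, and of these 19 were under 2-fold with the mean of each cell's CPM, 21 after thinning to 3000 UMIs and 21 with equal weight for the other clusters, while leaving out called doublets, mitochondrial and ribosomal protein genes or cluster code 7 took none of them under 2-fold. *Cdkn2b* turned from 3.02 to 0.901 with equal weight. The cause was not tested. The share of tendon-like cells was 39.0% without cells under 1000 genes. Of 614 genes higher and 959 lower than in the other cells, a detection limit of 25% gave 328 and 447, no limit but at least 100 UMIs gave 1116 and 2252, a fold of 1.5 gave 1437 and 1798, and thinning gave 274 and 478, and the mean of each cell's CPM gave 386 higher. Against the proliferating cluster the 15 genes higher were 1 at the 25% limit, 126 with no limit and 178 at a fold of 1.5, and the 340 lower were 569 at a fold of 1.5. Against the cartilage-gene cluster the 238 higher were 113, 526 and 552 under the same settings, and the 109 lower were 54, 208 and 355. Variance over mean moved by over 1.5 times in 12 of 105 genes at 5000 UMIs. Thinning of the comparisons and leaving out cluster code 7 were chosen after seeing the data. No paired analysis was possible because each condition has 1 library without replicate numbers.

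The intervals cover counting error only and not the spread between cultures, since there is 1 library. Depth differed between clusters and, among the tendon-like cells, between those with and without *Acta2*. At 3000 UMIs genes such as *Tnmd* and *Thbs4* are found in a small share of cells, and cells without a UMI cannot be called negative.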
